A study of Homo sapiens with 80 samples.

Results

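The 10 genes described here build the junctions between heart muscle cells, and they were measured in differentiating human stem cells that later gave a high or a low share of cardiomyocytes. They are the connexins GJA1, GJA5 and GJC1, the desmosome genes DSP, DSG2, DSC2, PKP2 and JUP, the alpha-catenin CTNNA3 and the disc membrane protein TMEM65. They were taken by name from a list of intercalated disc genes, and all 10 were found among the 43388 genes of each expression table. The rule that selects them uses no measured value, but the genes were chosen with earlier results of these data known.

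RNA was sequenced from pluripotent stem cells taken through a GSK3 inhibitor (CHIR99021) and Wnt secretion inhibitor (IWP2) protocol, and each culture was later put in a high or a low purity class by its final share of cells with cardiac troponin T in flow cytometry. In the multi-omic experiment the induced pluripotent line WTC11 was followed from day 0 to day 10 in steps of 2 days and again on days 13 and 16, with 1 high purity differentiation started at passage 52 and 1 low purity differentiation started at passage 69. Each was sampled in up to 4 wells a day, and poly(A) RNA libraries were made from 25 high purity and 31 low purity wells. In the RNA-only experiment total RNA libraries were made from 1 high and 1 low purity differentiation of each of 3 lines: the embryonic line H9 (passages 58 high and 55 low), the induced pluripotent line IMR90-4 (55 high and 75 low) and WTC11 (81 high and 69 low). Each of those was sampled once at 4 stages, called 1 to 4 below, which fell on days 0, 2, 4 and 6 in WTC11 and on days 0, 3, 5 and 7 in the other lines. Every culture was taken through the same protocol, with CHIR99021 added on day 0 and IWP2 on day 2 (WTC11) or day 3 (H9 and IMR90-4), and the labels do not say whether a sample was taken before or after the medium change of its day. Wells of the multi-omic experiment are replicates of a culture plate, not of a differentiation, so its p-values measure the spread between wells, and purity class, passage and the single differentiation cannot be told apart there.

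Neighbouring cardiomyocytes meet end to end at the intercalated disc. Gap junctions, made of connexins, pass the electrical impulse and small molecules between the cells. Desmosomes tie the cells together mechanically: the cadherins DSG2 and DSC2 reach across the gap, the armadillo proteins JUP (plakoglobin) and PKP2 bind their tails, and DSP (desmoplakin) links that plaque to intermediate filaments. In heart muscle CTNNA3 (alpha-T-catenin) joins the cadherin complexes to actin and binds PKP2, which mixes desmosome and adherens junction parts in 1 structure, and mutations of several of these genes cause arrhythmogenic cardiomyopathy.

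Recovered reads per multi-omic library numbered 6579715 to 18143597, and counted reads per RNA-only library 17990882 to 40357968. TNNT2, the gene of cardiac troponin T, averaged 3375 ± 446 TPM (a read count scaled for transcript length and library size; SD, n = 3) in high and 1073 ± 215 (n = 3) in low purity wells on day 16. On day 4 the order was the opposite, at 15.2 ± 4.63 (n = 4) in high and 489 ± 27.4 (n = 4) in low purity wells. The low purity differentiation had more of this transcript on day 4 and less on day 16. Summed TPM of 8 cardiomyocyte markers ran from 11100 to 13100 in high and from 3920 to 5850 in low purity wells on day 16, while 5 fibroblast and stroma markers summed to 377 to 457 and to 8500 to 11500. In bulk RNA fewer cells of a type and less RNA per cell cannot be told apart.

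The multi-omic results rest on the column names of the TPM table, which the deposited count table contradicts. None of its columns holds the reads found under the same name as TPM, and for 50 of 56 wells those reads stand under the name of another well. In a check chosen after seeing the data, the most similar other column (Spearman's rho over genes) was a well of the same day and class for 52 of 55 columns of the TPM table and for 32 of 55 of the count table. Under the count table's names TNNT2 on day 16 would run from 0.541 to 8.41 CPM (reads scaled to library size) in the high and from 0.514 to 230 CPM in the low purity class. GJA1 would then overlap on day 16, at 1210 to 2736 against 1193 to 2607 CPM, and CTNNA3 would be the lower in the high purity class, at 5.34 to 5.65 against 5.91 to 14.6 CPM. The names of the TPM table were kept throughout.

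Changes were tested on log2(TPM + 1) with limma, after scaling between libraries by trimmed means (TMM), over 25664 genes, and calls required an adjusted p (Benjamini-Hochberg) below 0.05 together with a log2 change of 1 or more in either direction. All 10 genes passed the filter on low values. Of the 10, none was called between high and low purity on day 0, where 1.07% of all genes were, and 5 had an unadjusted p under 0.05 in limma, as had 6591 of all genes. On day 2, 2 of the 10 were called (5.32% of all genes), on day 4 also 2 (7.84%), on day 6 only DSC2 (8.8%), on day 8, 4 (12.2%), on day 13, 2 (10.8%) and on day 16, 2 (13.4%). Day 8 was the day on which the share of members called stood farthest above that of all genes. The median log2 difference of the 10 genes lay between -0.26 and 0.28 on every day tested, with some of them higher and others lower. Leaving out the scaling lowered the median log2 difference of all genes to -0.18 on day 8, -0.13 on day 13 and -0.12 on day 16, and the share of calls that were higher in the high purity wells fell from 38.3% to 25.3%, from 42.2% to 30.6% and from 43.0% to 28.1%. All fold changes below are relative to the scaled libraries.

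**Figure D1:**
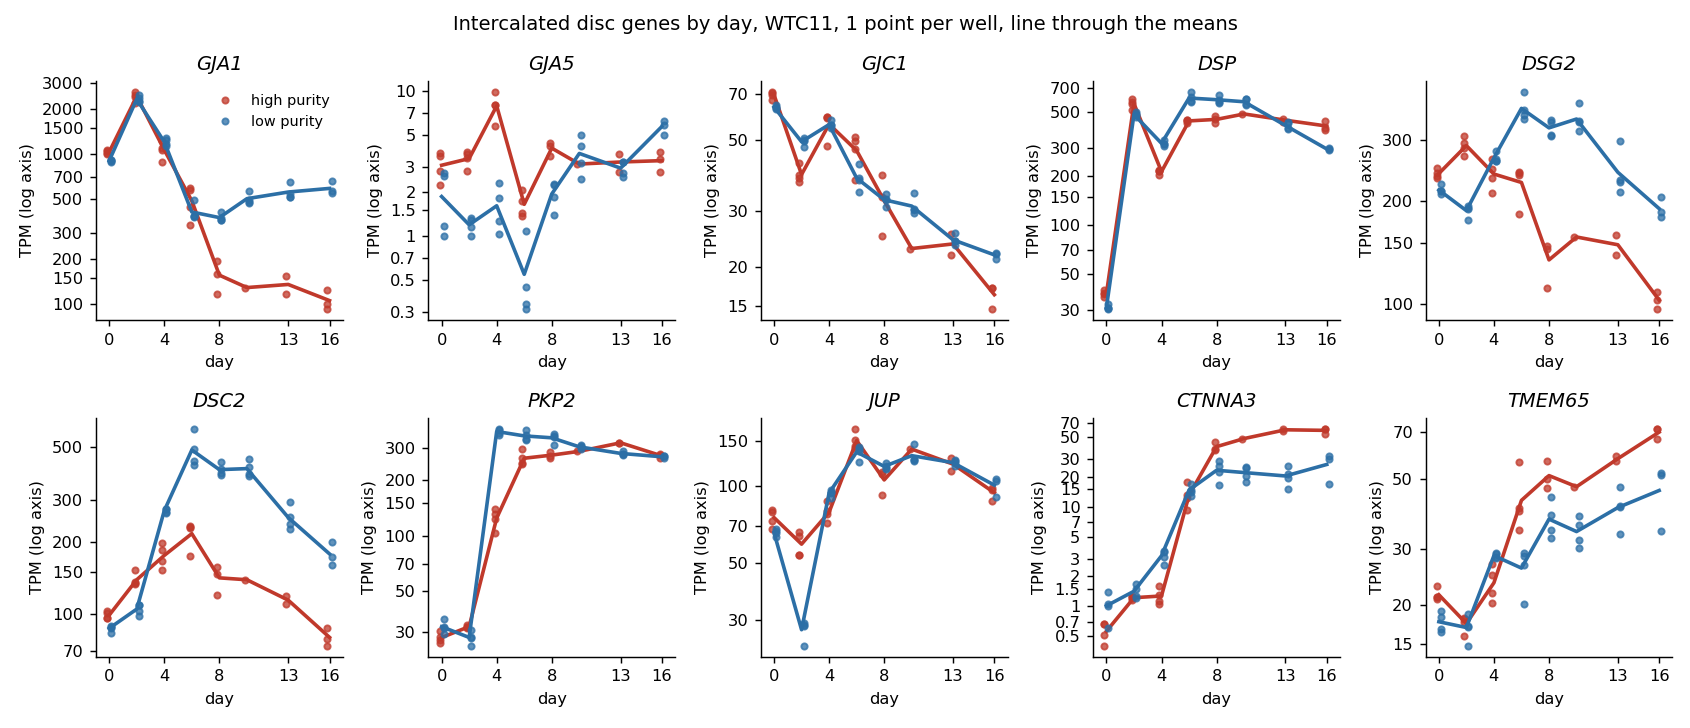
Level of each of the 10 genes in TPM on a log axis against day of differentiation in WTC11, with 1 point per well and lines through the means of the high (red) and low (blue) purity differentiation. GJA1 went down after day 2 in both and ended at 92.4 to 124 TPM in high and 547 to 660 in low purity wells, while CTNNA3 ended higher in the high purity wells. Day 10 has 1 high purity well.

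GJA1 encodes connexin 43, the main gap junction protein of ventricular muscle, which pluripotent stem cells and many stromal cells also make. It lies on chr6:121435646-121449727 (plus strand, GRCh38). It was the member with the highest level on day 0 and it separated the differentiations most on day 16, so the bases before its start are shown here as RefSeq gives them for GRCh38.p14, together with those of CTNNA3, the gene that moved most the other way (chr10:65912523-67763594, minus strand). The GJA1 stretch is chr6:121435396-121435576, plus strand, and ends before the earliest start in GENCODE. The CTNNA3 stretch is chr10:67696196-67696445, read on the minus strand, and it lies upstream of 1 listed start but within the longer RefSeq gene.
GJA1: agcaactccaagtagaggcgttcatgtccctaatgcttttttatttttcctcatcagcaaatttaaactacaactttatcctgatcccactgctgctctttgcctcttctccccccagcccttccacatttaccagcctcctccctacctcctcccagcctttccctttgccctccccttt
CTNNA3: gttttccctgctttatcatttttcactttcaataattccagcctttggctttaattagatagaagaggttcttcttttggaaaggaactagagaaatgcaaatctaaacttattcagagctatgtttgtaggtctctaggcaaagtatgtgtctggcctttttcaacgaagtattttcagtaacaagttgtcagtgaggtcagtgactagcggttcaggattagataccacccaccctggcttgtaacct
Neither window of 250 bases before the start held any of 5 short motifs searched on both strands, which is why no letter is in capitals: AGATAA (bound by GATA factors, in 9.17% of 35116 RefSeq promoter windows of that length), AGGTGT (T-box factors, 9.57%), CTTTGA (TCF/LEF factors, 11.2%), TATAAA (a core promoter box, 10.7%) and GGGCGG (SP/KLF factors, 42.6%). GC content was 48.0% for GJA1 and 38.8% for CTNNA3, against a median of 58.0% over all promoters. A motif with a free pair of letters, CANNTG (E-box), was found once for GJA1 and not for CTNNA3, and 61.8% of all windows hold it. A missing match says only that these letters are not in this window.

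GJA1 rose and fell alike in both differentiations up to day 4. In high purity wells 1 to 4 it stood at 1044, 1008, 1063 and 1019 TPM on day 0 and at 2496, 2415, 2198 and 2599 TPM on day 2. In low purity wells it stood at 918, 903, 884 and 909 TPM on day 0 and at 2378, 2254, 2210 and 2471 TPM on day 2. Every day 2 well was above every day 0 well, and the log2 rise was 1.20 (SE 0.11) in both, with limma adjusted p of 1.39e-12 in high and 1.28e-12 in low purity wells. On day 4 levels were back near those of day 0, at 883 to 1225 TPM in high and 1135 to 1274 in low purity wells, and the groups overlapped. The fall from day 2 to day 4 was called in both, at -1.31 in high and -1.00 in low purity wells. The low purity value sat at the threshold, and the call was lost without scaling (-0.95) and without any 1 of 4 wells (the weakest value was -0.97).

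After day 6 the courses of GJA1 in the differentiations parted. On day 6 the high purity wells held 441, 580, 594 and 338 TPM and the low purity wells 381, 389, 385 and 491 TPM, which overlap. On day 8 the 3 high purity wells held 194, 158 and 116 TPM and the 4 low purity wells 373, 363, 365 and 409 TPM. Every high purity well was now below every low purity well, and the log2 difference was -1.07 (SE 0.12, limma adjusted p = 6.74e-10). This call was lost when high purity well 4 was left out (-0.96). On day 10 the 1 high purity well held 129 TPM against 473 to 571 TPM in 4 low purity wells.

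The gap widened further by day 16. On day 13 the high purity wells held 117 and 153 TPM and the low purity wells 654, 520, 520 and 541 TPM, a log2 difference of -1.85 (SE 0.14, limma adjusted p = 5.28e-15). On day 16 they held 92.4, 124 and 99.8 TPM against 660, 565 and 547 TPM, a difference of -2.26 (SE 0.13, limma adjusted p = 5.35e-19). The groups were far apart on both days, and each time the low purity well numbered 1 on that day was the highest. The low purity wells went up again from day 8 to day 16 by 0.87 (limma adjusted p = 1.46e-07), which is under the fold threshold, while the high purity wells stood at -0.33. The change from day 0 differed between the differentiations by -1.20 (SE 0.17) at day 8 and by -2.39 (SE 0.17) at day 16, with limma adjusted p of 1.45e-07 and 1.98e-15. All 5 fibroblast and stroma markers were lower in high purity wells on days 8, 13 and 16, with none at 0 throughout, and their summed TPM on day 8 was 263 to 323 in high and 3790 to 4700 in low purity wells. Epicardium markers moved the same way, at 3.63 to 5.2 against 225 to 273 TPM on day 8. The part of these cells in the GJA1 difference was not tested.

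**Figure D2:**
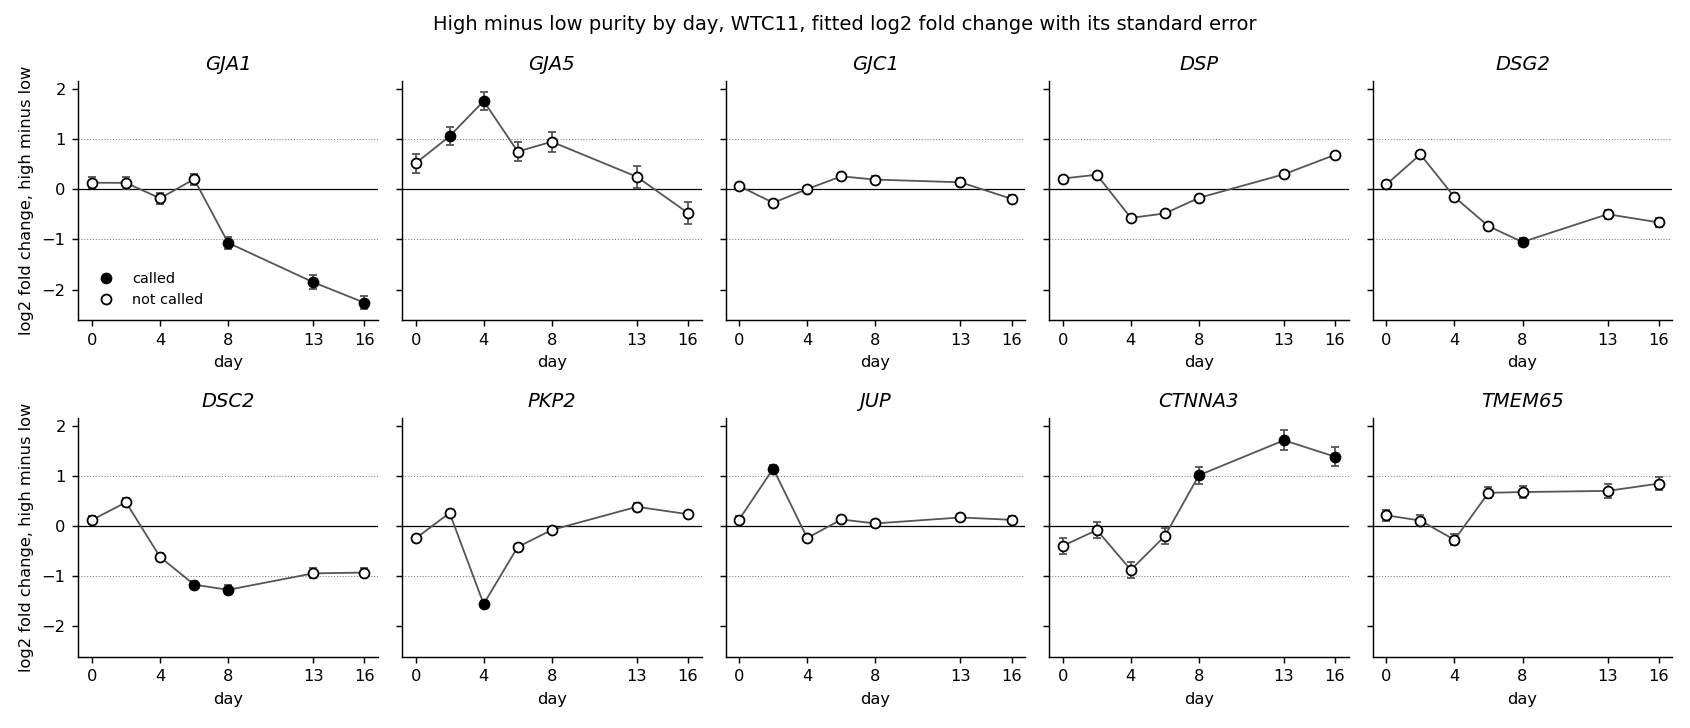
Fitted log2 fold change of each gene, high minus low purity, against day in WTC11, with its standard error; filled points were called, open points were not, and dotted lines mark a log2 change of 1 in either direction. GJA1 goes from near 0 on day 6 to -2.26 on day 16, DSG2 and DSC2 are lowest on day 8, and CTNNA3 turns from -0.88 on day 4 to 1.71 on day 13.

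GJA5 encodes connexin 40, a gap junction protein of the atria and the fast conduction system. It was scarce throughout, between 0.312 and 9.86 TPM, so that its fold changes depend on the added 1 TPM. On day 2 the high purity wells held 2.80, 3.43, 3.78 and 3.67 TPM and the low purity wells 1.29, 1.16, 1.33 and 0.992 TPM, without overlap (log2 difference 1.06, SE 0.18, limma adjusted p = 7.5e-06). On day 4 it reached its highest level, at 8.05, 7.96, 9.86 and 5.71 TPM in high purity wells against 1.28, 2.32, 1.83 and 1.04 TPM in low purity wells. The difference there was 1.76 (SE 0.18, limma adjusted p = 7.96e-11), and the change from day 0 differed by 1.24 (limma adjusted p = 0.000239). On day 8 the high purity wells held 4.21, 3.55 and 4.35 TPM and the low purity wells 1.39, 2.26, 2.29 and 1.85 TPM, and the difference of 0.95 (SE 0.20, limma adjusted p = 0.000102) missed the fold threshold. It passed with an added 0.1 TPM (1.26), with edgeR (1.30) and DESeq2 (1.31) on recovered reads, and without high purity well 2 (1.05) or low purity well 3 (1.01). On day 16 the order had turned, with 2.75, 3.79 and 3.39 TPM in high and 5.01, 5.86 and 6.22 in low purity wells. That last difference of -0.47 was not called, but the rise from day 8 to day 16 in low purity wells was (1.36, limma adjusted p = 3.3e-07). Endothelial cells are another known source of GJA5: 5 endothelial markers summed to 206 to 271 TPM in high and 356 to 373 in low purity wells on day 4, and to 40.6 to 48.1 against 158 to 236 TPM on day 16. Their part was not tested.

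GJC1 encodes connexin 45, the connexin of early heart muscle and of the nodes. It ended lower than it began, going from 69.5 ± 1.78 TPM (SD, n = 4) on day 0 to 16.3 ± 1.41 (n = 3) on day 16 in high purity wells and from 63.6 ± 0.872 (n = 4) to 21.8 ± 0.508 (n = 3) in low purity wells. The course was not even: it stood at 39.0 ± 2.30 TPM on day 2 and at 56.2 ± 5.52 on day 4 in high purity wells, and at 49.5 ± 1.30 and 56.01 ± 1.33 in low purity wells (n = 4 each). Day 4 was above day 2 without overlap in both classes, but neither difference was called (0.40 and 0.12). No test of GJC1 between purity classes was called on any day. Its sign on days 8 and 13 was not settled, at 0.19 and 0.14 with scaling and -0.03 and -0.04 without.

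Among all 21 connexins GJA1 held most of the summed TPM at the start, and its share ended lower in the high purity wells. Its share was 92.6% ± 0.301 (n = 4) on day 0 and 51.8% ± 3.04 (n = 3) on day 16 in high purity wells. In low purity wells it was 92.4% ± 0.264 (n = 4) and 89.7% ± 1.48 (n = 3). Another connexin, GJA3 (connexin 46, best known from the eye lens), took up much of the rest, at 64.7 ± 3.93 TPM in high and 21.1 ± 6.83 in low purity wells on day 16 (log2 difference 1.84, limma adjusted p = 1.78e-09). Of 12 other connexins tested, 2 were called higher and 1 lower on day 16, namely GJA3, GJD3 and GJB2. On day 8, 1 was higher and none lower.

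The desmosomal cadherins DSG2 (chr18:31498177-31549008, plus strand) and DSC2 (chr18:31058840-31102421, minus strand) lie in 1 cluster and moved together in the middle of the time course. The bases before their starts are shown for that reason, from RefSeq on GRCh38.p14, again ending before the earliest GENCODE start. They are chr18:31497927-31498042 for DSG2 on the plus strand and chr18:31102523-31102671 for DSC2 on the minus strand. Capitals mark matches to GGGCGG on either strand.
DSG2: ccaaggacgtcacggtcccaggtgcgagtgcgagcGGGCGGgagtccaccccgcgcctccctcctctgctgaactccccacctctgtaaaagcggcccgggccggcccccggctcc
DSC2: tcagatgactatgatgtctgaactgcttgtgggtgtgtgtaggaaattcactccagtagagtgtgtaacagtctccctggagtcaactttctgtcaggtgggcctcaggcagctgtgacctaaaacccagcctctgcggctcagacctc
Over the full 250 bases DSG2 held 2 matches to GGGCGG, 215 and 48 bases before the start, and 1 to AGGTGT, 117 bases before it. DSC2 held 1 match to GGGCGG, 46 bases before its start. GC content was 75.2% and 59.6%. Such matches are letters only and no measure of binding.

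DSC2 was the first of the pair to be called between the classes. On day 2 both genes were higher in high purity wells without overlap, and neither was called. DSG2 held 270.1 to 308.1 against 175.8 to 193.1 TPM that day, and DSC2 133.3 to 152.9 against 98.62 to 108.9 TPM. By day 4 the order of DSC2 had turned, at 152.5 to 197.7 TPM in high and 265.3 to 275.8 in low purity wells, again without a call. On day 6 the high purity wells held 231, 234, 229 and 174 TPM and the low purity wells 488, 421, 436 and 596 TPM, a log2 difference of -1.17 (SE 0.08, limma adjusted p = 5.12e-16). On day 8 they held 157, 147 and 121 TPM against 404, 388, 383 and 433 TPM, a difference of -1.27 (SE 0.09, limma adjusted p = 3.24e-16). The classes did not overlap on either day. On days 13 and 16 the differences were -0.95 and -0.93, under the fold threshold, and both passed it without scaling (-1.14 and -1.15). The change from day 0 differed by -1.39 at day 8 (limma adjusted p = 8e-13). At day 16 it differed by -1.05 (limma adjusted p = 2.56e-09), a call lost with median-of-ratios scaling (-0.99) and without low purity well 1 of day 16 (-0.97).

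DSG2 was called only on day 8, with a smaller gap. On day 6 it held 242, 238, 241 and 183 TPM in high and 368, 356, 346 and 415 in low purity wells, a difference of -0.74 that did not reach the fold threshold. On day 8 the wells held 144, 147 and 111 TPM against 339, 309, 311 and 344 TPM (log2 difference -1.05, SE 0.08, limma adjusted p = 2.34e-15). All 3 high purity wells were again below all 4 low purity wells, and the change from day 0 differed by -1.15 (limma adjusted p = 5.12e-12). By day 16 both had gone down, to 96.5, 109 and 103 TPM in high and 204, 179 and 186 in low purity wells, with a difference of -0.66. An antisense gene, DSG2-AS1, overlaps exons of DSG2 and reached at most 15.1 TPM, and since the strand setting of the counting is not given in the sources used here, reads of the pair cannot be told apart.

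Another desmocollin, DSC3, known from stratified epithelia, differed far more than DSC2. It stood at 3.61 ± 0.340 TPM (n = 3) in high and 199.8 ± 19.2 TPM (n = 4) in low purity wells on day 8, a log2 difference of -5.23 (limma adjusted p = 5.13e-31). On day 16 it stood at 9.65 ± 0.878 and 120.6 ± 18.1 TPM (n = 3 each). DSC2 held 97.4% ± 0.0676 of the desmocollin TPM in high and 66.7% ± 1.02 in low purity wells on day 8, and 88.6% ± 1.16 against 59.5% ± 1.14 on day 16. DSG2 held at least 98.3% of the desmoglein TPM in every well of days 0, 4, 8 and 16. Of 11 other desmosome genes tested, 2 were called higher and 4 lower in high purity wells on day 8, and 1 higher (PKP3) and 1 lower (DSC3) on day 16. Of 7 epithelial markers, 4 were higher and 1 lower in high purity wells on day 8, and their summed TPM was 4020 to 4590 in high and 6090 to 6370 in low purity wells. Their part in the cadherin differences was not tested.

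**Figure D3:**
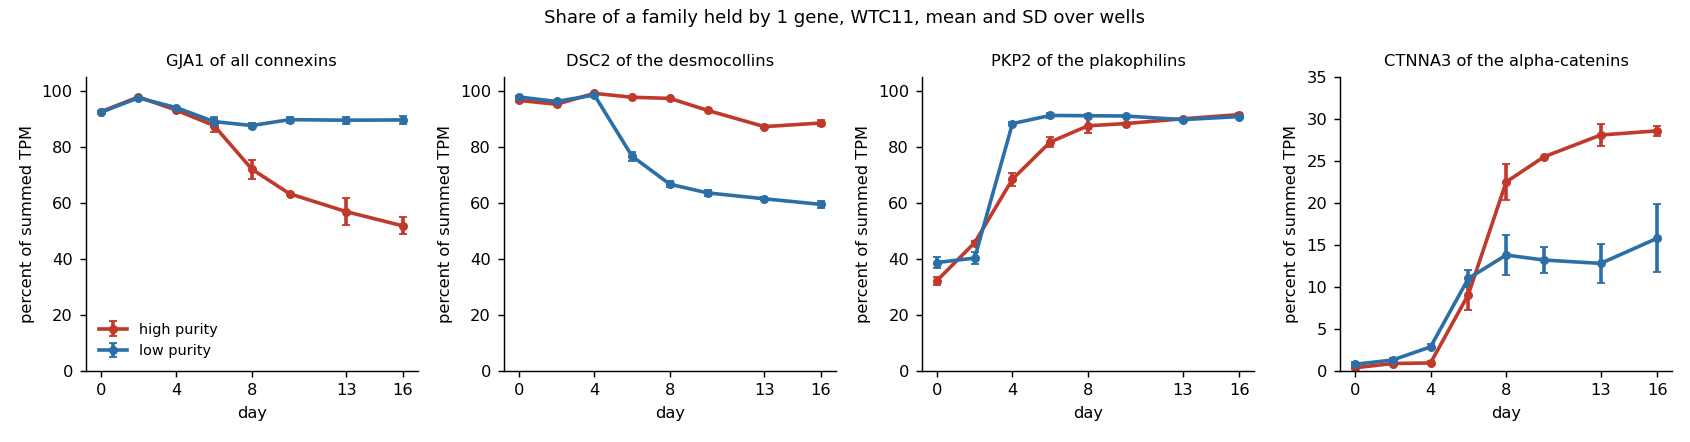
Percent of a family's summed TPM held by 1 gene against day in WTC11, mean and SD over wells, for GJA1 among 21 connexins, DSC2 among 3 desmocollins, PKP2 among 4 plakophilins and CTNNA3 among 3 alpha-catenins; the last panel has its own scale. GJA1 drops to 51.8% in high purity wells and stays at 89.7% in low purity wells on day 16, DSC2 drops to 59.5% in low purity wells, and PKP2 reaches 88.4% in low purity wells by day 4.

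DSP, the plakin that anchors the desmosome to the cytoskeleton, made the largest early move of the 10 genes. It lies on chr6:7541671-7586714, plus strand. Its upstream bases are shown because of that move, from RefSeq on GRCh38.p14 at chr6:7541421-7541574, ending before the earliest GENCODE start. Capitals mark matches to GGGCGG on either strand.
DSP: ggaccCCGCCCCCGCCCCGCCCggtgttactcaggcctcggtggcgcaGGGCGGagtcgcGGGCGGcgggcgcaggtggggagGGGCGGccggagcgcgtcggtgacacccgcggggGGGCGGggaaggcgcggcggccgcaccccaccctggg
The stretch holds all 7 matches to GGGCGG that were found in the 250 bases, at 245, 239, 234, 202, 190, 167 and 133 bases before the start. The full window also held AGGTGT 84 bases before the start and had a GC content of 78.0%.

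From day 0 to day 2 DSP went from 37.8, 37.4, 39.8 and 35.8 TPM to 556, 576, 601 and 515 TPM in high purity wells. In low purity wells it went from 32.5, 30.6, 30.2 and 30.7 TPM to 468, 483, 495 and 479 TPM. The log2 rise was 3.83 (SE 0.05, limma adjusted p = 1.48e-44) in high and 3.76 (SE 0.05, limma adjusted p = 2.59e-44) in low purity wells, with no overlap between days. On day 4 DSP stood lower again, at 205 to 219 TPM in high and 308 to 335 in low purity wells. The fall was called in high purity wells (-1.51) and not in low purity wells (-0.65). From day 4 to day 8 it rose in high purity wells by 1.23 (limma adjusted p = 2.68e-24), and in low purity wells it stood 0.83 higher without a call.

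Between classes DSP was never called, although the wells did not overlap on any of the 7 days tested. The difference was -0.57 on day 4 (limma adjusted p = 9.3e-14) and 0.69 on day 16 (limma adjusted p = 1.57e-14). On day 16 the high purity wells held 387, 440 and 398 TPM and the low purity wells 300, 296 and 289 TPM. Set against its cadherins, the balance differed clearly: summed DSG2 and DSC2 over DSP was 8.99 ± 0.230 (n = 4) on day 0 and 0.447 ± 0.00829 (n = 3) on day 16 in high purity wells, and 9.75 ± 0.209 (n = 4) and 1.25 ± 0.102 (n = 3) in low purity wells. TPM is per transcript length, so this compares transcript numbers and not protein.

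PKP2, the plakophilin of heart muscle, rose earlier in the low purity differentiation of the multi-omic experiment. On day 2 both classes were low, at 31.8, 32.8, 31.5 and 32.0 TPM in high and 27.6, 25.1, 30.8 and 28.3 in low purity wells. On day 4 the high purity wells held 131, 104, 124 and 140 TPM and the low purity wells 382, 361, 354 and 378 TPM. The gap was wide against the spread within each class, with a log2 difference of -1.56 (SE 0.06, limma adjusted p = 2.52e-24), and the change from day 0 differed by -1.31 (SE 0.09, limma adjusted p = 5.12e-16). The rise from day 2 to day 4 was 3.62 in low and 1.80 in high purity wells. High purity wells then rose by a further 1.30 from day 4 to day 8 (limma adjusted p = 8.19e-21), and low purity wells stood at -0.18.

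On day 16 PKP2 stood at 264, 274 and 277 TPM in high and 266, 270 and 270 in low purity wells, which overlap as deposited. The scaled difference was 0.24 (SE 0.07, limma adjusted p = 0.00651) and was not called. Its share of the 4 plakophilins was 68.5% ± 2.31 in high and 88.4% ± 0.627 in low purity wells on day 4, and 91.6% ± 0.421 against 90.9% ± 0.177 on day 16. On day 4, 6 of 8 cardiomyocyte markers were called lower in high purity wells and none higher, with summed levels of 121 to 159 TPM in high and 1250 to 1390 in low purity wells. The part of that earlier cardiomyocyte expression in the PKP2 difference was not tested.

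JUP, plakoglobin, which serves both desmosomes and adherens junctions, was called between the classes on day 2 and on no other day. High purity wells held 53.8, 66.4, 63.9 and 53.7 TPM and low purity wells 29.2, 28.6, 23.9 and 28.7 TPM. The classes did not overlap, and the log2 difference was 1.14 (SE 0.06, limma adjusted p = 7.11e-19). Low purity wells had fallen from day 0 by 1.39 on the log2 scale and rose by 1.68 to day 4, when they held 90.1 to 96.7 TPM. High purity wells moved less, at -0.37 and 0.29, neither of them called. On day 8, 13 and 16 the sign was not settled, at 0.05, 0.17 and 0.12 with scaling and -0.18, -0.02 and -0.10 without. At day 2, 3 of 6 pluripotency and 3 of 7 epithelial markers were called higher in high purity wells and none lower, with summed levels of 2050 to 2330 against 1210 to 1260 TPM and of 2870 to 3650 against 1950 to 2070 TPM. Their part was not tested.

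CTNNA3, the alpha-catenin found mainly in heart and testis, was nearly absent at the start and ended higher in the high purity wells. It stood at 0.516, 0.663, 0.661 and 0.398 TPM in high and 1.00, 0.604, 1.04 and 1.38 in low purity wells on day 0. On day 4 the high purity wells held 1.29, 1.13, 1.06 and 1.59 TPM and the low purity wells 3.52, 3.57, 2.62 and 3.16 TPM. That day the low purity wells were ahead without overlap, and the log2 difference of -0.88 missed the fold threshold. It passed with an added 0.1 TPM in place of 1 (-1.27), and with edgeR (-1.34) and DESeq2 (-1.35) on recovered reads.

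Between day 4 and day 8 CTNNA3 rose by 4.32 in high (SE 0.17, limma adjusted p = 8.02e-25) and by 2.43 in low purity wells (SE 0.16, limma adjusted p = 3.73e-17). On day 6 the wells still overlapped, at 9.32 to 17.6 TPM in high and 13.0 to 17.2 in low purity wells. On day 8 the high purity wells held 37.4, 45.3 and 38.3 TPM and the low purity wells 16.4, 29.2, 25.6 and 22.2 TPM. The order had turned, with a difference of 1.01 (SE 0.17, limma adjusted p = 4.14e-06) that sat at the threshold: the call was lost without scaling (0.79) and without any 1 of 4 wells (0.87 at the lowest), namely high purity wells 2 and 4 and low purity wells 1 and 4.

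The later days were clearer. On day 13 the high purity wells held 61.3 and 57.9 TPM and the low purity wells 15.04, 25.8, 21.4 and 19.6 TPM (log2 difference 1.71, SE 0.20, limma adjusted p = 1.1e-09). On day 16 they held 54.4, 60.9 and 61.0 TPM against 17.0, 30.4 and 32.7 TPM (1.38, SE 0.18, limma adjusted p = 2.63e-08). On each of these days the low purity well numbered 1 was the lowest of its group and held the most GJA1. The labels do not say whether a number marks the same culture on different days. The change from day 0 differed by 1.41 at day 8 and by 1.78 at day 16 (limma adjusted p = 5.52e-06 and 7.91e-08). Of the 3 alpha-catenins CTNNA3 held 28.6% ± 0.615 of the TPM in high and 15.8% ± 4.06 in low purity wells on day 16 (n = 3 each), while CTNNA1, the widely expressed one, stood at 146.4 ± 11.6 and 139.3 ± 5.07 TPM. The gene LRRTM3 lies inside an intron of CTNNA3 on the other strand, shares no exon with it and reached at most 15.4 TPM.

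TMEM65, a small membrane protein of the intercalated disc that binds connexin 43, went the way of CTNNA3 at a smaller scale. It rose by 1.25 from day 4 to day 8 in high purity wells (SE 0.12, limma adjusted p = 3.21e-12) and stood 0.30 higher in low purity wells, which was not called. On day 16 the high purity wells held 66.6, 72.0 and 72.0 TPM and the low purity wells 34.1, 51.4 and 52.2 TPM. No low purity well reached the lowest high purity well, and the difference was 0.84 (SE 0.13, limma adjusted p = 3.77e-07), which stayed under the fold threshold. Cardiomyocyte markers moved in the same direction as CTNNA3 and TMEM65: 5 of 8 were called higher and none lower in high purity wells on day 8, and 6 of 8 on days 13 and 16. Their part was not tested.

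Read along time, fewer of the 10 genes were called from day 8 to 16 than in any earlier step. The share of all genes called was also lowest in that step, in both differentiations. In high purity wells 2 of 10 were called from day 0 to 2 (16.7% of all genes), 3 from day 2 to 4 (13.7%), 5 from day 4 to 8 (14.0%) and none from day 8 to 16 (11.4%), where 6 had an unadjusted p under 0.05 in limma against 12048 of all genes. In low purity wells the counts were 3 (17.9%), 4 (16.9%), 2 (11.3%) and 1 (6.39%). The 5 genes called from day 4 to 8 in high purity wells were GJA1, lower, and DSP, PKP2, CTNNA3 and TMEM65, higher. Without scaling the share of calls that were higher went from 54.0% to 36.1% for day 8 to 16 in high and from 56.2% to 37.4% in low purity wells. The difference in the change from day 0 was called for 2 members at day 4 (7.01% of all genes), for 4 at day 8 (10.3%) and for 3 at day 16 (13.4%). For these tests the share that was higher went from 42.0% to 24.4% at day 8 and from 40.6% to 22.7% at day 16 without scaling.

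The span between the highest and the lowest group mean ordered the members. CTNNA3 had the widest, 107-fold, from 0.560 TPM on day 0 to 59.6 TPM on day 13, both in high purity wells. GJA1 followed at 23.0-fold, DSP at 19.6-fold, GJA5 at 14.5-fold and PKP2 at 13.2-fold. DSC2 spanned 6.07-fold, JUP 5.44-fold, GJC1 4.26-fold, TMEM65 4.14-fold and DSG2 3.62-fold. The group with the highest mean was a low purity one for DSP, DSG2 and DSC2 (day 6) and PKP2 (day 4), and a high purity one for the other 6.

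Among the lists around the 10 genes, that of the disc-associated genes was more one-sided in its RNA. Of 14 disc-associated genes tested, 6 were called higher in high purity wells on day 8, 7 on day 13 and 6 on day 16, and none lower. Of all genes 12.2%, 10.8% and 13.4% were called on those days, in either direction. The largest differences on day 16 were those of LDB3, a Z-disc protein, at 299.4 ± 1.28 against 94.5 ± 22.3 TPM (log2 difference 1.90, limma adjusted p = 8.16e-08), NEBL (1.84), MYZAP (1.82) and XIRP1 (1.79). On day 4 the direction was the opposite, with 1 called higher and 5 lower. The median log2 difference of this list on day 16 was 0.91, against -0.03 for the 10 members and 0.00 for all genes. Of 10 adherens junction genes only CDH2 (N-cadherin, the main cadherin of the disc) was called on day 16, at 754 ± 51.6 TPM in high and 428 ± 27.5 in low purity wells (1.04, limma adjusted p = 3.61e-16), and on days 2, 4 and 8 only CDH1 (E-cadherin), which was higher in high purity wells by 1.32, 1.77 and 2.60.

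**Figure D4:**
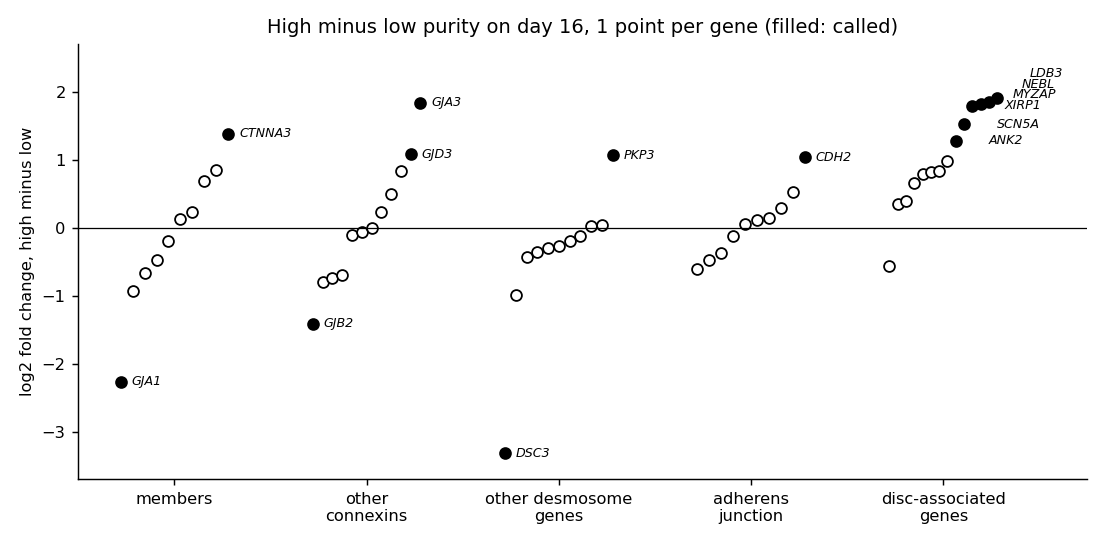
Log2 fold change on day 16, high minus low purity, for each tested gene of the 10 members, 12 other connexins, 11 other desmosome genes, 10 adherens junction genes and 14 disc-associated genes; filled points were called and are named. The 6 called disc-associated genes are all above 0, whereas the members spread from -2.26 (GJA1) to 1.38 (CTNNA3).

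Patterns over time were also compared gene by gene, by Pearson's r over the 16 group means of log2 scaled TPM among 16951 genes. These r share groups, libraries and the course of the differentiation, and are a description. CTNNA3 was most like FSD2 (0.991), CORIN (0.990) and HIPK3 (0.990), and PKP2 most like JPH2 (0.985). GJC1 was most like HNRNPA0, HAUS1 and DDX11 (0.985 each), DSC2 most like RAB37 (0.962) and GJA1 most like BLOC1S6 (0.960). For TMEM65 the closest was EEF1A2 (0.971), for DSP LOC101928076 (0.976), for JUP KLF3 (0.933), for DSG2 NLGN4Y (0.891) and for GJA5 ATRAID (0.812). Over the 24 RNA-only libraries r was 0.920 for FSD2, 0.869 for JPH2 and 0.760 for BLOC1S6, but only 0.305 for ATRAID and 0.14 for NLGN4Y. Between members r was -0.916 for GJA1 and CTNNA3, 0.913 for CTNNA3 and TMEM65, and 0.809 for PKP2 and JUP, and in the RNA-only libraries it was -0.709, 0.898 and 0.790.

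The RNA-only experiment covers the first week in 3 lines, with 1 library per line, class and stage, and was tested on counts with edgeR over 24810 genes (line by stage in the model, n = 3 differentiations a class). No member was called between high and low purity at stage 1, 2, 3 or 4, and neither was any gene (0.0% in each of the 4 comparisons). At an unadjusted edgeR p under 0.05 there were 0, 2, 0 and 2 members and 362, 1921, 1828 and 2916 genes of all. With DESeq2 in place of edgeR 0, 1, 0 and 2 members were called, against 0.0%, 0.247%, 0.175% and 0.635% of all genes. The library of the low purity H9 differentiation at stage 2 stands apart. It held 39.0 TPM of PKP2 and 25.1 TPM of TMEM65, where the other 5 held 3.81 to 5.06 and 8.59 to 10.0 TPM. In that stage and class the summed cardiomyocyte markers ran from 9.22 to 230 TPM and the stroma markers from 1.01 to 77.1 TPM, against 11.7 to 24.7 and 1.19 to 4.13 TPM in the high purity class. Without H9 the PKP2 difference at stage 2 was -0.29, against -1.25 with it. At stage 3 PKP2 stood at 26.1, 35.8 and 22.9 TPM in high purity libraries of H9, IMR90-4 and WTC11. The low purity libraries held 24.3, 21.8 and 9.32 TPM, without a call. PKP2 was thus lower in the low purity library of each line, though only slightly in H9. The order was the reverse on day 4 in the multi-omic experiment. Stage 3 fell on day 4 in WTC11 and on day 5 in H9 and IMR90-4.

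At stage 4 CTNNA3 stood at 7.19 TPM in H9, 10.3 in IMR90-4 and 7.05 in WTC11 of high purity, and at 0.670, 6.88 and 2.84 TPM of low purity. Each high purity library was above every low purity one, and the log2 difference was 1.72 (SE 0.56, edgeR adjusted p = 0.298), or 1.00 without H9. DESeq2 gave the same 1.72 with an adjusted p of 0.0386. TMEM65 stood at 43.3, 39.6 and 32.5 TPM against 10.96, 28.4 and 18.8 TPM in the same order of lines (1.07, SE 0.30, edgeR adjusted p = 0.26, and DESeq2 adjusted p = 0.0377), or 0.68 without H9. JUP did not overlap either, at 33.5, 34.5 and 32.9 TPM against 26.7, 28.1 and 25.5 TPM (0.32, edgeR adjusted p = 0.475). So 3 of 10 members did not overlap at this stage, against 10.3% of all genes tested.

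GJA1 at stage 4 was 110, 64.7 and 99.5 TPM in high and 123, 87.5 and 292 in low purity libraries of H9, IMR90-4 and WTC11. It was lower in the high purity library of each line, but the classes overlapped (-0.72, SE 0.46, edgeR adjusted p = 0.575). DSC2 was much the highest in low purity H9, at 135 TPM against 33.2 to 52.6 TPM in the other 5 libraries. In IMR90-4 it was also lower in the high purity library, at 36.6 against 50.7 TPM. In WTC11 it was higher there, at 42.2 against 33.2 TPM, the reverse of day 6 in the multi-omic experiment. At stage 2 CTNNA3 stood at 0.208, 0.314 and 0.511 TPM in high and 1.56, 0.598 and 2.18 in low purity libraries. The difference was -2.01 (SE 0.57, edgeR adjusted p = 0.481), or -1.59 without H9, with a DESeq2 adjusted p of 0.0234. GJA5 then stood at 0.626, 2.47 and 2.05 TPM in high and 0.527, 2.87 and 3.36 in low purity libraries. Unlike in the multi-omic wells of day 2, it was higher in the high purity class in H9 only. Stage 2 fell on day 2 in WTC11 and on day 3 in H9 and IMR90-4. JUP stood at 21.5, 12.6 and 11.9 against 15.3, 12.4 and 13.0 TPM, and was lower in the high purity class in WTC11 only. At stage 4 the cardiomyocyte markers summed to 1490 to 2930 TPM in high and 316 to 3030 in low purity libraries, and the stroma markers to 41.7 to 64.7 and 57.1 to 1390 TPM. Their part was not tested.

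**Figure D5:**
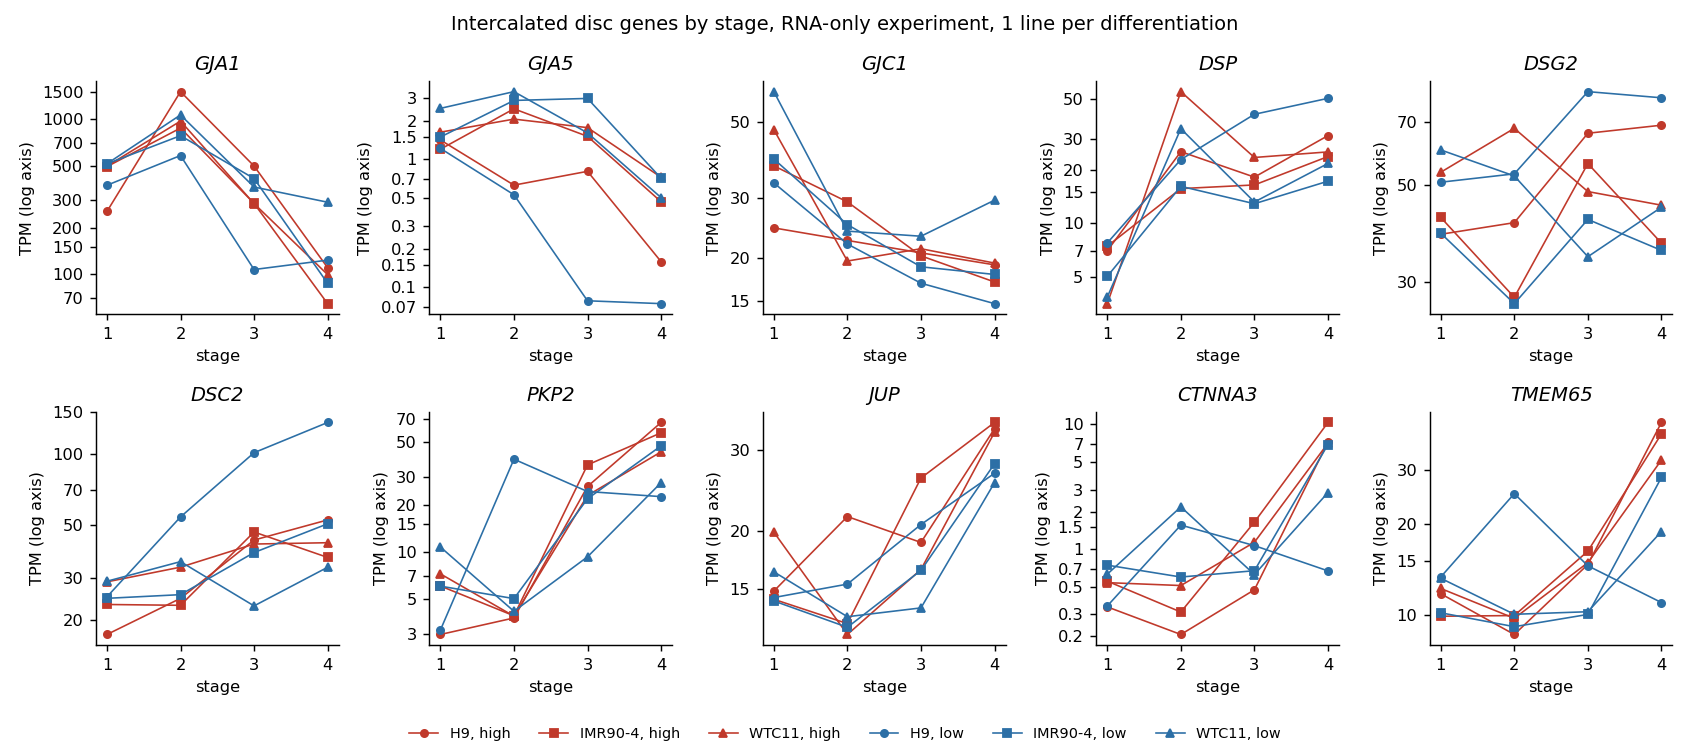
Level of each of the 10 genes in TPM on a log axis at the 4 stages of the RNA-only experiment, with 1 line per differentiation, colour for purity class and marker for cell line. All 6 differentiations peak in GJA1 at stage 2 and end far lower, and at stage 4 CTNNA3 and TMEM65 are higher in all 3 high purity libraries than in the 3 low purity ones.

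Along stages GJA1 and DSP also moved early in the RNA-only differentiations. From stage 1 to 2 those 2 members were called (25.6% of all genes), GJA1 at 1.22 (SE 0.29, edgeR adjusted p = 0.00194) and DSP at 2.41 (SE 0.31, edgeR adjusted p = 5.92e-06), and both were higher in all 6 differentiations. GJA1 went from 254 to 516 TPM at stage 1 to 583 to 1507 TPM at stage 2, and DSP from 3.54 to 7.77 TPM to 15.7 to 55.1 TPM. From stage 2 to 3 only GJA1 was called (6.86% of all genes), at -1.58 (edgeR adjusted p = 0.00234). PKP2 stood 1.64 higher there (edgeR adjusted p = 0.0602), and 2.32 higher with a call when H9 was left out.

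From stage 3 to 4, 4 members were called (3.72% of all genes): GJA1 (-1.43, edgeR adjusted p = 0.00744), GJA5 (-1.72, 0.0173), CTNNA3 (2.64, 0.0139) and TMEM65 (1.05, 0.0356). None of the 4 was called without IMR90-4, and only GJA1 was without WTC11. Low purity H9 went its own way in CTNNA3, from 1.07 to 0.670 TPM, while the other 5 differentiations all went up, to between 2.84 and 10.3 TPM. It also went against the call in GJA1, from 107 to 123 TPM, where the other 5 all went down. GJA5 was nearly absent in low purity H9 at both stages, at 0.0784 and 0.0745 TPM. DSP stood at 17.3 to 50.5 and DSG2 at 35.5 to 79.5 TPM at stage 4. Levels were not compared between the experiments, since their library kits differ.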

How the data were processed

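Human stem cell differentiations were profiled by RNA sequencing in 56 multi-omic and 24 RNA-only libraries. The 10 genes and the comparison lists were chosen with earlier results of these data known. Reads were aligned with STAR 2.5.3a to hg38 and counted with featureCounts 2.0.3, per the submitters' processing notes. The annotation release, the strand setting and the way TPM was computed are not given in the sources used here. The authors deposited TPM and count tables for both experiments.

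In the RNA-only experiment each of the 24 deposited count columns fits its namesake in the TPM table. 36 broken lines of that count table were left out, which leaves 43382 genes. In the multi-omic experiment 0 of the count columns fit, and 50 TPM columns match a differently named count column, so the deposited TPM was the main measure there. Whole reads were recovered from TPM with solved gene lengths for 37194 genes, with 100.0% of nonzero values whole to within 0.02, and served depth and alternatives only.

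The multi-omic TPM values were scaled by TMM and tested as log2(TPM + 1) with limma 3.58.1 (R 4.3.3) over 16 group means, with genes of at least 1 TPM in at least 3 libraries. Day 10 has 1 high purity well and was not tested. RNA-only counts were tested with edgeR 4.0.16 (quasi-likelihood, TMM, filterByExpr), with line by stage plus class terms, or with the differentiation as a term for stages. Calls needed a Benjamini-Hochberg adjusted p under 0.05 and a log2 fold change of at least 1. Alternatives were pseudocount 0.1, other scaling, no low-value filter, edgeR and DESeq2 1.42.0 on recovered reads, no fold threshold, a well-number block, a fit per day and each well or line left out. The tests were run on simulated data with known changes and a fixed spread between libraries in place of the real one. That run does not show how well they work at the real spread. Precision rests on read depth and on the spread between wells or lines.

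All 10 genes are named with their values. From each list up to 4 called genes with the largest difference are named, plus any on which a result turns, and for likeness the genes with the highest r among those of at least 5 TPM in a group. Wells with the same number do not pair: of 24 same-number pairs, 0 had deviations correlated above 0.1 (-0.018 to 0.032). Promoter bases come from RefSeq (GRCh38.p14), where 7 of the 10 genes had an entry, and gene positions from RefSeq.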

Additional observations from a re-analysis of the deposited data

Results flagged for a closer look

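Among 110 groups of 4 wells (10 genes), 9 had a well that stood apart from the other 3 by more than Dixon's 95% critical value allows, and chance flags about 1 in 20 groups. Low purity well 4 of day 6 was high for GJA1, at 490.7 TPM against 380.7 to 389.5, and for GJA5, at 1.081 TPM against 0.312 to 0.441. High purity well 4 of day 6 was low for DSG2, at 182.6 TPM against 237.8 to 241.7, and for DSC2, at 174.3 TPM against 228.7 to 234.2. GJA1 in low purity well 1 of day 13 stood at 653.6 TPM against 519.8 to 540.7. GJC1 in high purity well 2 of day 4 stood at 47.88 TPM against 58.59 to 59.19, and DSC2 in high purity well 2 of day 2 at 152.9 TPM against 133.3 to 135.8. JUP stood at 23.89 TPM in low purity well 3 of day 2, against 28.64 to 29.21, and at 145.5 TPM in low purity well 1 of day 10, against 125.6 to 127.5.

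The change from day 0 differed between the 2 differentiations for 6 genes, by the test of the difference itself in limma. At day 4 the difference was 1.24 for GJA5 and -1.31 for PKP2. At day 8 it was 1.41 for CTNNA3, -1.39 for DSC2, -1.15 for DSG2 and -1.20 for GJA1. At day 16 it was 1.78 for CTNNA3, -1.05 for DSC2 and -2.39 for GJA1. GJA5 was not called at day 16, but passed with pseudocount 0.1 (-1.29) and with edgeR (-1.26) or DESeq2 (-1.19) on recovered reads.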

How the results depend on the processing

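With no fold change threshold, 3, 7, 7, 7, 8, 7 and 8 of the 10 genes passed between classes on days 0, 2, 4, 6, 8, 13 and 16, against 14.6%, 37.4%, 36.8%, 39.9%, 44.1%, 35.9% and 43.0% of all genes. From day to day 9, 9, 9 and 6 passed in high and 7, 8, 9 and 7 in low purity wells (32.3% to 53.4% of all genes), and for the change from day 0, 6 passed at day 4 and 9 at day 16 (23.4% and 34.8%). On day 6 the count was 2 with pseudocount 0.1 and with edgeR or DESeq2 on recovered reads, by the addition of GJA5, which also passed on day 8 under these settings. More of all genes were called on day 6 there too, in that order 3894 of 25664, 3852 of 24223 and 3770 of 31244. The main fit called 2259 of 25664 that day. Without scaling the count of members was 3 for low purity day 8 to 16 (1808 of 25664 genes) and 5 for the change to day 16 (3584 of 25664). DESeq2 gave 1 member at RNA-only stage 2 (0.247% of all genes) and 2 at stage 4 (0.635%). From stage 2 to 3 DESeq2 gave 2 (2165 of 31977 genes). On RNA-only TPM limma gave 2 from stage 2 to 3 (552 of 18743 genes) and 2 from stage 3 to 4 (418 of 18743). Leaving out 1 well gave 2 to 5 genes on day 8 and 1 to 2 for low purity day 8 to 16 (DSC2 without well 1 of day 16). Leaving out a line gave 1 to 2 from stage 2 to 3 and 0 to 4 from stage 3 to 4. Shares of all genes were not computed with a well or a line left out. Of 338 other recomputed counts, each stayed within 1.5 times. No gene reversed a called direction. The block of wells by number changed no call in 180 tests, and without the replicate block of the RNA-only stages GJA5 lost its call from stage 3 to 4 (-1.78, edgeR adjusted p = 0.126). TMM scaling moved 80 of 160 mean levels by more than 1 SD, and all 30 likeness values moved in the RNA-only libraries. GJA5 and early CTNNA3, at a few TPM, are the levels that depth limits most. Ranking members by TMM-scaled level was not run, since 1 factor per library cannot change their order within it.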
